A study of Mus musculus with 30 samples.

Results

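The interleukin-1 system was followed through 9 genes: the ligands *Il1a* and *Il1b*, the receptor antagonist *Il1rn*, the decoy receptor *Il1r2*, the co-receptor *Il1rap*, the related ligand *Il18* with its secreted inhibitor *Il18bp*, and *Casp1* and *Nlrp3* of the inflammasome. The 9 were listed by name, as ligands, receptors, inhibitors and inflammasome genes of this system, out of 45317 gene symbols in the count table. All 9 were among the 11566 genes with enough reads to be tested, *Il1a* only through its counts in the brain.

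Cells were sorted from C57BL6.CCR2RFP/WT mice of 12 to 18 weeks, in which 1 copy of *Ccr2* is replaced by a red fluorescent protein, about a month after implantation of GL261 glioma cells into the brain. GL261 is a mouse glioma line, here made to carry a GFP anchored in its membranes, so that GFP in another cell marks uptake of tumor material. Every group came from tumor-bearing mice, and no tumor-free group was analysed here. Blood gave Ly6Chigh monocytes, the subset that enters inflamed tissue, and Ly6Clow monocytes, the subset that patrols the vessel wall, each from mice 22, 23 and 24. The brain gave glioma monocytes from mice 22, 24 and 26, and CCR2high and CCR2low macrophages from mice 22, 23, 24 and 26, each sorted as GFPneg or GFPpos. Blood cells were sorted as CD45+ CD115+ cells with little CD11c, and brain cells by high CD11b and CD45 with Ly6C and F4/80, after enzymatic and mechanical dissociation of the brain only. The labels give brain as the tissue of all samples, blood monocytes included, whose cell type names the blood.

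The mouse is read from the number in the sample title, which the labels do not explain, and every value within mice rests on this reading. Monocyte populations had 3 replicates and macrophage populations 4. The 28 replicates held 1553616 to 5689644 counts on genes (median 2140229.5). Values below are CPM, the counts of a gene per 1000000 counts on all genes after TMM scaling of the libraries, and levels of different genes are compared only as CPM per kilobase of exon. Ratios of the counts of 2 genes are not corrected for length and are compared between populations or mice only. A difference is called at an adjusted p under 0.05 (edgeR quasi-likelihood test, Benjamini-Hochberg over all genes tested), and all comparisons come from 1 fit over the 8 populations. *Ccr2*, a sorting marker, followed the labels, at 143 to 313 CPM in GFPneg CCR2high macrophages and at 31.9 to 112 CPM in GFPneg CCR2low macrophages. Of all genes tested, 3.13% did not overlap between these populations in either direction, and 0% were called, *Ccr2* included. In the study *Ccr2* did not differ significantly between them. *Spn*, which was not a sorting marker, was at 231 to 469 CPM in Ly6Clow monocytes against 30.5 to 66.3 CPM in Ly6Chigh monocytes, where 17.8% of all genes did not overlap in either direction. Both come from a list of 12 monocyte and macrophage markers, whose other genes are not given here. In the study, *Cx3cr1* and *Treml4* did not differ significantly between the blood subsets, and their directions were opposite to those it describes for these markers. A group of 8 microglia markers was present in all brain populations (summed 1167 to 7509 CPM per replicate) and low in blood (23.8 to 132 CPM, with *Sall1*, *Slc2a5* and *Siglech* at 0 in both populations and *Tmem119* also at 0 in Ly6Clow monocytes). In RNA from sorted bulk cells, fewer cells of a type and less RNA per cell cannot be told apart. Ly6Clow monocytes of mouse 23 stood apart with 13.3% of counts on spike-in RNAs, which were added to each RNA sample, against 0.284% in the library with the lowest share. Of the 2 libraries of this sample, the first had too few genes detected and was left out, and the 2 libraries of GFPpos glioma monocytes of mouse 22 were summed.

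Interleukin-1 signals through a receptor that recruits the co-receptor IL1RAP and, through MyD88 and the IRAK kinases, activates NF-kB. IL-1α is active as made, whereas IL-1β and IL-18 are made as precursors that caspase-1 cuts once a sensor such as NLRP3 has assembled an inflammasome. IL1RN occupies the receptor without signaling, IL1R2 binds the ligands without a signaling domain, and IL18BP sequesters IL-18. Monocytes and macrophages are main sources of these cytokines, and transcription of *Il1b* is induced by activation whereas the IL-18 precursor is made by many resting cells. RNA levels do not show whether a precursor was cut or released.

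All 9 genes are protein coding, and their positions are given on GRCm38 (GENCODE vM21). *Il1a* (chr2:129299610-129309972, minus strand) and *Il1b* (chr2:129364570-129371139, minus strand) lie side by side, 54.6 kb apart. *Il1rn* lies at chr2:24336853-24351494 (plus strand), *Il1r2* at chr1:40074079-40125231 (plus strand) and *Il1rap* at chr16:26581704-26730117 (plus strand). *Il18* (chr9:50554827-50581840, plus strand) and *Casp1* (chr9:5298517-5307265, plus strand) share a chromosome, *Il18bp* lies at chr7:102014885-102018690 (minus strand) and *Nlrp3* at chr11:59541568-59566956 (plus strand). The strand setting of the counting is not given in the sources used here, and the exons of *Il1a* share 222 bases (11.2%) with the antisense gene *Gm14023*. *Gm14023* had 0 counts in all blood replicates and 18 to 179 counts in brain replicates, so reads of the pair cannot be told apart there. The bases shared by *Il1b* with *Il1bos* (25), *Il18bp* with *Numa1* (80) and *Il1rap* with *Gm20319* (552, at 0 counts throughout) were a smaller share of their exons, at most 4.86%.

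The 250 bases before the start of 3 genes are shown because these genes separate the patterns described below: *Il1a* was silent in blood and high in the brain, *Il1b* was already present in blood and higher in the brain, and *Casp1* was not called different between brain populations and Ly6Chigh monocytes. The sequences are from RefSeq (GRCm38.p6), 5′ to 3′ on the strand of the gene, and capitals mark letters that match a motif of a factor known in myeloid cells. All 9 genes had an entry, with 12 starts in all.
Il1a, chr2:129309973-129310222, minus strand: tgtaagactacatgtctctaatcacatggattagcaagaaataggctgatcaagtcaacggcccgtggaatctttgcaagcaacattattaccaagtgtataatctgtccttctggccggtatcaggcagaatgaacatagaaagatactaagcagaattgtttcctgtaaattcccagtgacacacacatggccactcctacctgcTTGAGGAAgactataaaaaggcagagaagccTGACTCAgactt
Il1b, chr2:129371140-129371389, minus strand: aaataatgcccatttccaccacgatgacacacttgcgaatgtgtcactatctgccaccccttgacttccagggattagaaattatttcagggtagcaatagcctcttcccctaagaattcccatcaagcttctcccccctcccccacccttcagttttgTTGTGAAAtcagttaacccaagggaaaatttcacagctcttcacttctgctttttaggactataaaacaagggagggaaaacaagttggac
Casp1, chr9:5298267-5298516, plus strand: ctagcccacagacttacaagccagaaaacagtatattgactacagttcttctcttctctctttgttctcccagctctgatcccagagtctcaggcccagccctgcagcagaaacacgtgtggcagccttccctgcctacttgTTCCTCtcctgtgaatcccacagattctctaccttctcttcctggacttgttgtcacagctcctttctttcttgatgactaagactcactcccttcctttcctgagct
The motifs searched on both strands were the PU.1 core GAGGAA, AP-1 TGANTCA and C/EBP TTNNGNAA, where N is any base, an NF-kB motif of GGG and TTTCC with any 2 bases between them, and an interferon-response motif of TTTC and TTTC with any 2 bases between them. *Il1a* held a C/EBP match 43 to 36 bases before its start, which contains a PU.1 match 41 to 36 bases before it, and an AP-1 match 12 to 6 bases before it that reads alike on both strands. *Il1b* held a C/EBP match 91 to 84 bases before its start, and *Casp1* a PU.1 match on the opposite strand 108 to 103 bases before its start. Of 32851 promoters of this length, 23.3% held the PU.1 core, 36.8% C/EBP, 6.75% AP-1, 1.41% NF-kB and 2.98% the interferon-response motif. These matches are a description of the letters in these windows only.

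Across the 22 brain replicates, *Il1b* had the highest level of the 9 genes per length (mean 1122 CPM per kb), followed by *Il1a* (246 CPM per kb) and the antagonist *Il1rn* (176 CPM per kb). *Il18bp* (133 CPM per kb) and *Il1r2* (99.3 CPM per kb) came next, then *Casp1* (70.5 CPM per kb) and *Il18* (36.5 CPM per kb). *Nlrp3* (7.92 CPM per kb) and *Il1rap* (2.58 CPM per kb) were the lowest. In the levels of single replicates, 5 of the 9 genes, *Il1a*, *Il1b*, *Il1rn*, *Il1r2* and *Il18bp*, had all 22 brain replicates above all 6 blood replicates, a pattern shown by 4.75% of all genes tested, and 0 of the 9 had all brain replicates below, against 1.58%.

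**Figure D1:**
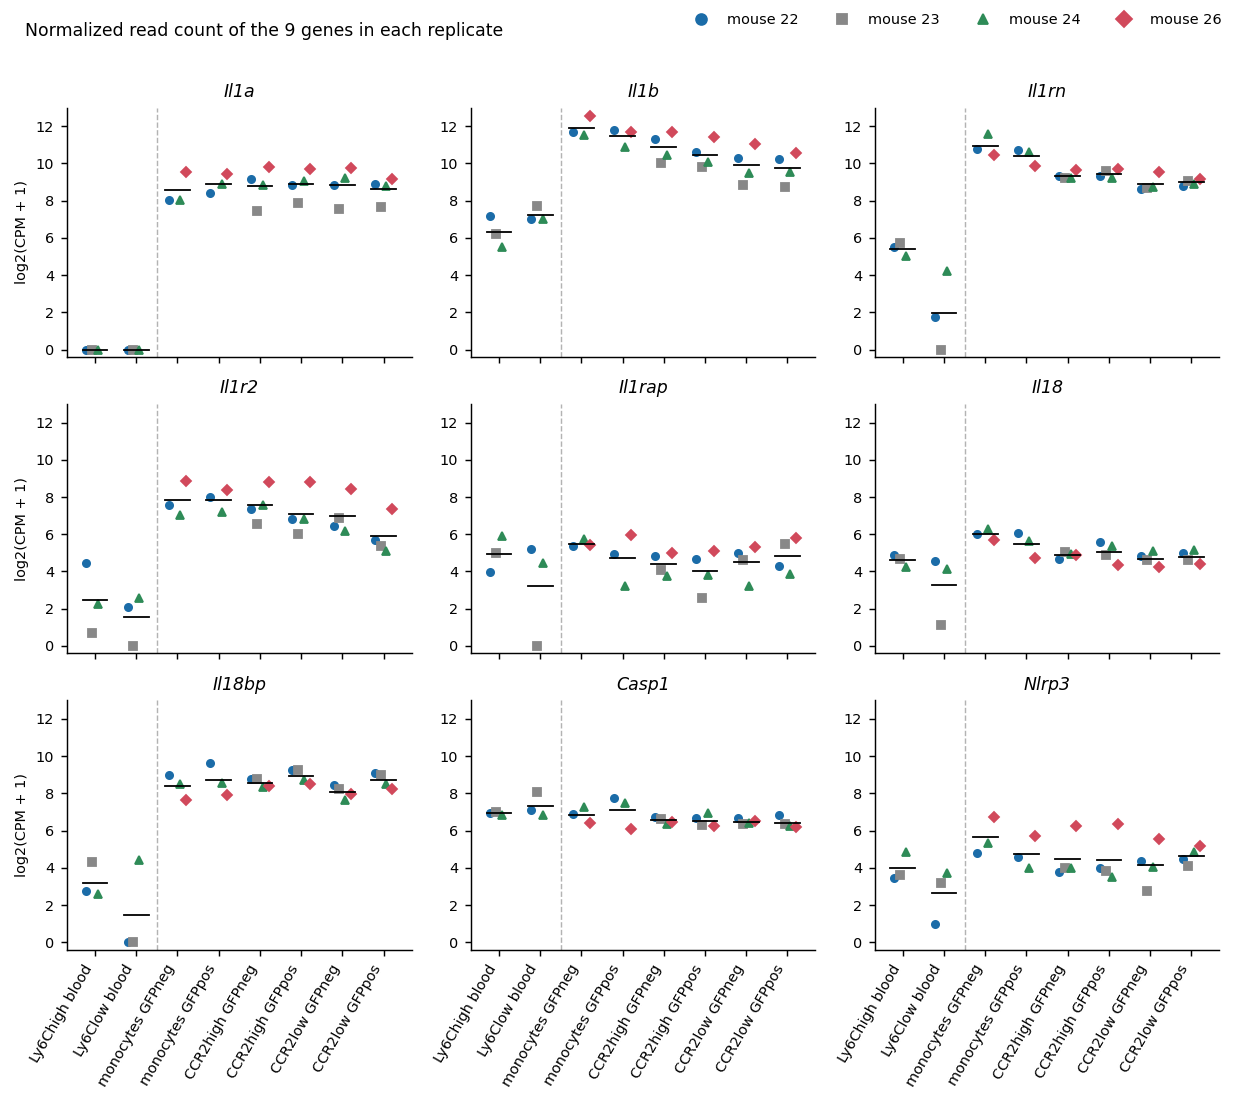
Level of each of the 9 genes in every replicate, as log2(CPM + 1), by population, with a marker for each mouse and a line at the mean of these log values; the dashed line separates blood from brain. *Il1a*, *Il1b*, *Il1rn*, *Il1r2* and *Il18bp* lie higher in all 22 brain replicates than in all 6 blood replicates, and mouse 26 is the highest replicate of all 6 brain populations for *Il1a*, *Il1r2* and *Nlrp3*.

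The first comparison asked how the genes differ between brain populations and Ly6Chigh blood monocytes, the presumed precursors of infiltrating cells. The same 5 genes passed the test as higher in GFPneg glioma monocytes, GFPneg CCR2high macrophages, GFPneg CCR2low macrophages and GFPpos glioma monocytes, and 0 passed as lower. Of all genes tested, 11.1%, 12.7%, 14.1% and 17% were called higher in these comparisons, and 2.68%, 5.14%, 6.09% and 6.07% lower. The 4 comparisons share the Ly6Chigh replicates. The median log2 difference of the 9 genes was 5.02, 3.94, 3.53 and 4.91, where that of all genes was 0.12, 0.15, 0.17 and 0.22. Scaled on the spike-ins instead, the counts called were 4, 4, 3 and 2. Calls over all genes fell as well: 591 and 572 of 11566 genes were called in GFPneg CCR2low macrophages and GFPpos glioma monocytes, against 2340 and 2673 with TMM scaling. *Il1r2* then passed in none of the 4 comparisons, at 5.19 (adjusted p = 0.058), 4.91 (0.057), 4.33 (0.087) and 3.73 (0.11). *Il1rn* did not pass in GFPneg CCR2low macrophages (3.61, adjusted p = 0.054) or GFPpos glioma monocytes (3.26, 0.081), and *Il18bp* not in GFPpos glioma monocytes (3.95, 0.058). That scaling moved the median of all genes in GFPpos glioma monocytes from 0.22 to -1.37. This population includes the libraries with 8.68% and 5.16% of counts on spike-ins.

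*Il1a*, the cytokine that needs no cleavage, had 0 counts in all 6 blood replicates, where a count of 0 allows up to 3 counts, or 1.36 CPM on average over the Ly6Chigh replicates. In GFPneg glioma monocytes it was at 265, 263 and 748 CPM in mice 22, 24 and 26, and in GFPpos glioma monocytes at 339, 477 and 683 CPM. In CCR2high macrophages of mice 22, 23, 24 and 26 it was at 569, 176, 453 and 896 CPM without GFP and at 453, 236, 537 and 847 CPM with GFP. CCR2low macrophages held similar ranges, 184 to 879 CPM without GFP and 198 to 572 CPM with GFP. All brain replicates thus lay far above the limit of blood, and those of mouse 23 were the lowest of each macrophage population. Against 3 counts per Ly6Chigh replicate, *Il1a* was at least 314-fold higher in GFPneg glioma monocytes, at least 386-fold higher in GFPneg CCR2high macrophages and at least 391-fold higher in GFPneg CCR2low macrophages. Without mouse 26, whose replicates were the highest, these bounds were 195-fold, 294.5-fold and 305-fold.

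*Il1b*, the main secreted interleukin-1 of activated monocytes, was already present in blood, at 146, 73.8 and 44.3 CPM in Ly6Chigh monocytes and at 129, 210.1 and 128 CPM in Ly6Clow monocytes of mice 22, 23 and 24. In glioma monocytes of mice 22, 24 and 26 it was at 3350.0, 2968 and 6021 CPM without GFP and at 3505, 1910.3 and 3349 CPM with GFP. In macrophages of mice 22, 23, 24 and 26 it was at 2594, 1055, 1417 and 3369 CPM in the GFPneg CCR2high population and at 1274, 461, 725 and 2149.6 CPM in the GFPneg CCR2low population. The lowest brain replicate, at 430.0 CPM, lay above the highest blood replicate, and glioma monocytes were higher than CCR2low macrophages of the same GFP state without overlap. Of all genes tested, 13.8% (GFPneg) and 8.08% (GFPpos) did not overlap between these 2 populations in either direction. Against Ly6Chigh monocytes the log2 difference was 5.55 ± 0.66 (SE; adjusted p = 1.1e-06) in GFPneg glioma monocytes, 4.59 ± 0.62 (5.4e-06) in GFPneg CCR2high macrophages and 3.72 ± 0.59 (4.5e-05) in GFPneg CCR2low macrophages. It was 5.06 ± 0.65 (2.7e-06) in GFPpos glioma monocytes.

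*Il1rn*, whose product blocks the interleukin-1 receptor, rose beside its ligands. It was at 44.4, 52.1 and 31.8 CPM in Ly6Chigh monocytes of mice 22, 23 and 24, and at 1754, 3098 and 1424 CPM in GFPneg glioma monocytes of mice 22, 24 and 26. In GFPneg CCR2high macrophages it was at 638, 590.0, 589 and 799.6 CPM and in GFPneg CCR2low macrophages at 395, 409, 429 and 734 CPM in mice 22, 23, 24 and 26. GFPneg glioma monocytes lay above both GFPneg macrophage populations without overlap, where 11.7% (CCR2high) and 13.8% (CCR2low) of all genes tested did not overlap in either direction. The GFPneg CCR2high replicates varied little, from 589 to 799.6 CPM. The log2 differences from Ly6Chigh monocytes were 5.62 ± 0.65 (SE; adjusted p = 6.9e-07) in GFPneg glioma monocytes, 3.94 ± 0.59 (2.1e-05) in CCR2high and 3.53 ± 0.58 (5.9e-05) in CCR2low macrophages, and 5.03 ± 0.63 (2.2e-06) in GFPpos glioma monocytes. The count of *Il1b* per count of *Il1rn* had medians of 1.91 in GFPneg glioma monocytes, 3.235 in GFPneg CCR2high macrophages and 2.31 in GFPneg CCR2low macrophages, with ranges that overlapped, and 1.42 in Ly6Chigh monocytes. These ratios too are not corrected for exon length (1.91 kb for *Il1b* and 5.54 kb for *Il1rn*).

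*Il1r2*, the decoy receptor, was at 20.8, 0.586 and 3.76 CPM in Ly6Chigh monocytes of mice 22, 23 and 24. It was at 192, 132 and 465 CPM in GFPneg glioma monocytes of mice 22, 24 and 26, at 162, 93.4, 190.0 and 446 CPM in GFPneg CCR2high macrophages and at 84.8, 117, 70.8 and 347 CPM in GFPneg CCR2low macrophages. The lowest brain replicate, 33.9 CPM in GFPpos CCR2low macrophages, was above all blood replicates, and mouse 26 was the highest in every brain population, from 327 against at most 252 CPM in GFPpos glioma monocytes to 441 against at most 114 CPM in GFPpos CCR2high macrophages. The log2 differences from Ly6Chigh monocytes were 5.02 ± 1.03 (SE; adjusted p = 0.0012), 4.79 ± 1.003 (0.0011) and 4.26 ± 0.98 (0.0024) in the 3 GFPneg populations, in the same order. *Il1rap*, the co-receptor that IL1R2 can also bind, was at 14.6 to 59.8 CPM in Ly6Chigh monocytes and at 5.004 to 62.3 CPM in the brain replicates, so the groups overlapped throughout. Its log2 difference was 0.33 (95% confidence interval -1.52 to 2.17) in GFPneg glioma monocytes, -0.71 (-2.43 to 1.003) in CCR2high and -0.49 (-2.21 to 1.23) in CCR2low macrophages, with adjusted p from 0.63 to 0.89.

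*Il18bp*, the secreted inhibitor of interleukin-18, rose in all 4 comparisons with Ly6Chigh monocytes, in which its ligand *Il18* did not pass. It was at 5.62, 18.7 and 5.02 CPM in Ly6Chigh monocytes, at 506, 359.8 and 198 CPM in GFPneg glioma monocytes of mice 22, 24 and 26, and at 442, 434, 327 and 334 CPM in GFPneg CCR2high macrophages of mice 22, 23, 24 and 26. In GFPneg CCR2low macrophages it was at 351, 301, 197 and 254 CPM. Every brain replicate was above every blood replicate, the lowest at 197 CPM against at most 20.1 CPM. The log2 differences from Ly6Chigh monocytes were 5.23 ± 0.86 (SE; adjusted p = 9.5e-05) in glioma monocytes, 5.35 ± 0.85 (4.8e-05) in CCR2high and 4.87 ± 0.83 (0.0001) in CCR2low macrophages, all GFPneg, and 5.64 ± 0.88 (3.6e-05) in GFPpos glioma monocytes.

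*Il18* itself was at 28.1, 24.02 and 18.2 CPM in Ly6Chigh monocytes and at 63.2, 75.5 and 51.6 CPM in GFPneg glioma monocytes of mice 22, 24 and 26. The replicates did not overlap, but neither did those of 35.6% of all genes tested, in either direction. The log2 difference of 1.44 ± 0.56 (SE) did not pass (adjusted p = 0.093). It did pass with DESeq2 in place of edgeR (1.47, adjusted p = 0.023) and with edgeR fitted on these 2 populations alone (1.46, 0.0082). In GFPneg macrophages *Il18* was at 17.9 to 32.8 CPM, and its log2 differences of 0.30 (95% confidence interval -0.77 to 1.37) in CCR2high and 0.12 (-0.95 to 1.19) in CCR2low macrophages were within the spread. The count of *Il18bp* per count of *Il18* was 0.2 to 0.78 in Ly6Chigh monocytes and 3.84 to 21.8 in brain replicates. In Ly6Clow monocytes it was 1.21 in the only replicate with more than 3 counts of both genes. These ratios are not corrected for exon length (3.03 kb for *Il18bp* and 1.03 kb for *Il18*), so they compare populations and not the genes with each other.

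Of the inflammasome genes, *Casp1*, the protease that cuts both cytokine precursors, was at 122, 126 and 115 CPM in Ly6Chigh monocytes and at 117, 155 and 82.6 CPM in GFPneg glioma monocytes of mice 22, 24 and 26. It was at 106, 99.1, 81.3 and 88.3 CPM in GFPneg CCR2high macrophages and at 101, 79.5, 83.3 and 90.2 CPM in GFPneg CCR2low macrophages. All GFPneg macrophage values were below the Ly6Chigh replicates, where 35.7% and 35.3% of all genes tested did not overlap in either direction. GFPpos CCR2high macrophages of mouse 24, at 121 CPM, lay within the range of the Ly6Chigh replicates. No difference from Ly6Chigh monocytes passed: the log2 values were -0.04 (95% confidence interval -0.74 to 0.67; adjusted p = 0.97), -0.37 (-1.03 to 0.28; 0.49) and -0.45 (-1.11 to 0.20; 0.37). *Nlrp3*, the sensor, was low, at 10.1, 11.1 and 27.4 CPM in Ly6Chigh monocytes and 27.1, 39.6 and 105 CPM in GFPneg glioma monocytes of mice 22, 24 and 26, and the groups overlapped slightly. Its log2 differences were 1.79 ± 0.89 (SE; adjusted p = 0.21) in glioma monocytes, 0.83 ± 0.83 (0.56) in CCR2high and 0.39 ± 0.83 (0.81) in CCR2low macrophages. Without mouse 26 the values in macrophages turned to -0.23 and -0.29, again without passing.

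**Figure D2:**
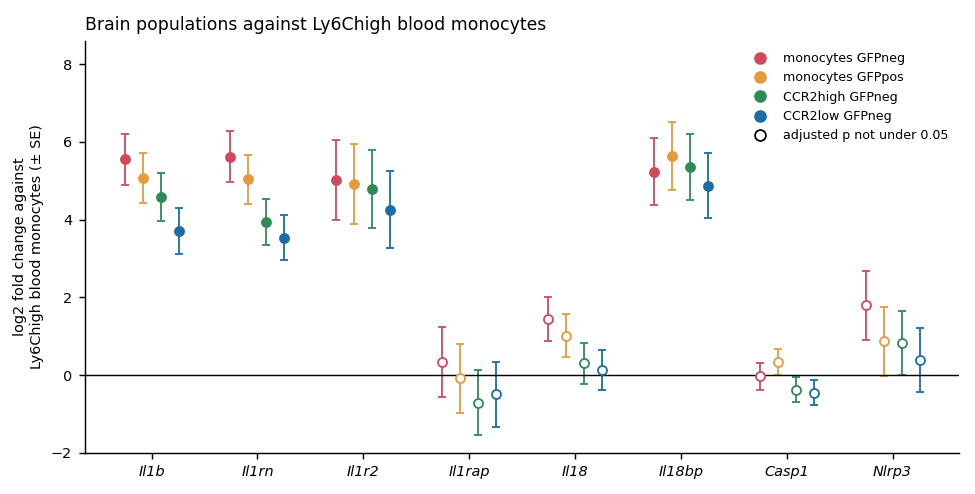
Log2 fold change of 8 genes in GFPneg and GFPpos glioma monocytes and in GFPneg CCR2high and CCR2low macrophages against Ly6Chigh blood monocytes, with bars of 1 standard error from the edgeR fit and open points where the adjusted p was not under 0.05; *Il1a* is left out because it was at 0 in blood. *Il1b*, *Il1rn*, *Il1r2* and *Il18bp* lie between 3.53 and 5.64 and pass in all 4 comparisons, while *Il1rap*, *Il18*, *Casp1* and *Nlrp3* lie between -0.71 and 1.79 and pass in none.

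Levels were also paired within mice, where blood and brain of mice 22, 23 and 24 gave 16 pairs of a brain replicate and the Ly6Chigh replicate of the same mouse. *Il1a*, *Il1b*, *Il1rn*, *Il1r2* and *Il18bp* were higher in the brain in all 16. This follows from all their brain replicates lying above all blood replicates and adds no separate support, so only the size within pairs is new. The log2 difference within a pair ranged from 2.53 to 6.04 for *Il1b*, from 2.95 to 6.58 for *Il1rn*, from 1.26 to 6.49 for *Il1r2* and from 3.96 to 6.96 for *Il18bp*. *Il18* was higher in the brain in 12 of 16 pairs, *Nlrp3* in 10, *Il1rap* in 7 and *Casp1* in 4. The share of all genes with such pair counts was not taken. A list of 12 genes known to be induced by tissue dissociation, such as *Fos*, *Egr1* and *Atf3*, also differed, with a summed level of 1755 to 2858 CPM in blood replicates and 5447 to 23079.6 CPM in brain replicates. Only brain tissue was dissociated, and the part of this in the result was not tested. Markers of neutrophils, which make much *Il1b* and *Il1r2*, were summed over 13 genes at 391 to 1529.7 CPM in blood and at 14.9 to 2927 CPM in the brain. The summed level of 8 T and NK cell markers was 24.02 to 158 CPM in Ly6Chigh monocytes, with *Ncr1* at 0, 873 to 1509.6 CPM in Ly6Clow monocytes and 288 to 1812 CPM in the brain. That of 10 dendritic cell markers was 100.2 to 219 CPM, 584 to 1895 CPM and 251 to 1504 CPM in the same order, with *Ccl22*, *Fscn1* and *Siglech* at 0 in both blood populations. That of 6 basophil and mast cell markers was at most 1.88 CPM, at most 7.10 CPM and 3.06 to 163 CPM, and that of 7 B and plasma cell markers 517 to 768 CPM, 847 to 1211 CPM and 137 to 3229 CPM. The part of these cell types in the result was not tested.

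Against Ly6Clow monocytes, the other blood subset, 7 of the 9 genes were called higher in GFPneg glioma monocytes (13% of all genes tested were higher) and 0 lower (5.51%). The added genes were *Il18*, at 22.6, 1.16 and 16.6 CPM in Ly6Clow monocytes (log2 difference 2.24 ± 0.58 SE; adjusted p = 0.0075), and *Nlrp3*, at 0.944, 8.10 and 12.1 CPM (2.98 ± 0.94; 0.027). The *Nlrp3* call was lost without GFPneg glioma monocytes of mouse 26 (2.23, adjusted p = 0.15) or without Ly6Clow monocytes of mouse 22 (2.48, 0.091) or mouse 23 (3.02, 0.071), while that of *Il18* held when any 1 replicate was left out. Fitted on these 2 populations alone, *Il18* (2.21, adjusted p = 0.37), *Nlrp3* (2.99, 0.24) and *Il18bp* (5.66, 0.13) were not called, where 226 of 9210 genes were called. In GFPneg CCR2high and CCR2low macrophages the same 5 genes as before were higher (14.7% and 15% of all genes), and *Casp1* was called lower (8.39% and 8.35% of all genes were lower). Fitted on the compared pair alone, *Il18bp* was not called in CCR2low macrophages (5.27, adjusted p = 0.056) and *Casp1* in neither (-0.79, 0.25, and -0.99, 0.15).

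*Casp1* was at 138, 266 and 115 CPM in Ly6Clow monocytes of mice 22, 23 and 24, and all GFPneg macrophage replicates were below these. Of all genes tested, 26.2% (CCR2high) and 24.8% (CCR2low) did not overlap with Ly6Clow monocytes in either direction. The log2 difference was -0.88 ± 0.32 (SE; adjusted p = 0.045) in CCR2high and -0.96 ± 0.32 (0.029) in CCR2low macrophages. Without Ly6Clow mouse 23, the replicate with 13.3% spike-in counts, it was -0.45 (adjusted p = 0.34) and -0.52 (0.26). Each of the CCR2high replicates left out in turn also ended the first call (adjusted p from 0.075 to 0.10), as did CCR2low mice 23, 24 and 26 the second (0.059 to 0.094), and the first also missed the threshold with the mouse as a block (-0.76, 0.068). With that block *Il18* was called higher in GFPneg CCR2high macrophages than in Ly6Clow monocytes (1.45 ± 0.51, adjusted p = 0.04; without the block 1.10 ± 0.53, 0.14). Scaled on the spike-ins, the *Casp1* differences turned to 1.32 and 1.15, where the median of all genes moved from 0.25 and 0.26 to 1.87 and 1.74.

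Between the blood subsets, *Il1rn* was higher in Ly6Chigh monocytes (44.4, 52.1 and 31.8 CPM) than in Ly6Clow monocytes (2.36, 0 and 17.5 CPM) of mice 22, 23 and 24. The replicates did not overlap, nor did those of 17.8% of all genes tested, in either direction. The log2 difference was 2.60 ± 0.60 (SE; adjusted p = 0.01), and *Il1rn* was the only gene of the 9 called, where 5.61% of all genes were called. The adjusted p was 0.051 without Ly6Chigh mouse 23 and 0.05 without Ly6Clow mouse 22, both just over the threshold, and scaled on the spike-ins it was 0.22. Without Ly6Clow mouse 24, 2 of the 9 genes were called, where 2444 of all 11967 genes tested were called, a share near that of the 9. With the mouse as a block *Il1b* was also called, as lower in Ly6Chigh monocytes (-1.04 ± 0.32, adjusted p = 0.047; without the block -0.83 ± 0.55, 0.4), where 7.97% of all genes were called. In single mice *Il1b* was at 146 against 129 CPM in mouse 22, 73.8 against 210.1 CPM in mouse 23 and 44.3 against 128 CPM in mouse 24, Ly6Chigh first, so that 2 of 3 mice showed this direction.

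Within the brain, *Il1b* and *Il1rn* followed the same order in every mouse: glioma monocytes over CCR2high macrophages over CCR2low macrophages. Mice 22, 24 and 26 each gave a GFPneg and a GFPpos set of the 3 populations, and both genes kept this order in 6 of 6 sets, as did 0.467% of all genes tested. *Il1r2* showed it in 4 sets, *Il18* and *Il18bp* in 3 each and *Il1a* in 0. In mouse 23, which gave macrophages only, CCR2high exceeded CCR2low for both genes with and without GFP. The mean level of *Il1b* went from 4113 ± 1663 CPM (SD, n = 3) in GFPneg glioma monocytes through 2109 ± 1066 CPM (n = 4) in CCR2high to 1152 ± 746 CPM (n = 4) in CCR2low macrophages, and mice differed so much that neighbouring groups overlapped.

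The test of these differences depended on the tool, on the samples fitted and on whether the mouse was taken into account. Between GFPneg glioma monocytes and CCR2low macrophages, *Il1rn* was called (log2 difference 2.09 ± 0.50 SE, adjusted p = 0.034; 1.21% of all genes called) and *Il1b* was not (1.84 ± 0.51, 0.079). The *Il1rn* call was lost without any of CCR2low mice 22, 23 and 24 (adjusted p 0.11, 0.13 and 0.13) or glioma monocyte mice 22 and 24 (0.076 and 0.28), while 2 of the 9 genes were called without CCR2low mouse 26 (106 of all 11547 genes called). With the mouse as a block, *Il1b* (1.78 ± 0.29, adjusted p = 0.00069) and *Il1rn* (2.03 ± 0.48, 0.021) were both called, among 2.46% of all genes. Without a block, 2 of the 9 genes were called by DESeq2 (274 of 11566 genes called) and 2 by edgeR with only these 2 populations fitted (293 of 9942). In GFPpos cells the same comparison gave 1.58 ± 0.51 for *Il1b* (adjusted p = 0.37; 0 of the 9 genes called, 4 at an unadjusted p under 0.05, 0 by DESeq2, and 0.164% of all genes called, 6.62% unadjusted). With the block it was 1.48 ± 0.29 (0.011; 0.527% called). In this comparison 1 of the 9 genes was called without GFPpos glioma monocytes of mouse 26 (112 of all 11911 genes called). In a single test over the 6 brain populations 0 of the 9 genes passed, with *Il1rn* at adjusted p = 0.054 and *Il1b* at 0.12 (2 at an unadjusted p under 0.05, 2 by DESeq2; 0.942% of all genes called, 6.12% unadjusted). With the block *Il1b* did (0.00063; 1.99% called). In this test 1 of the 9 genes was called without GFPneg CCR2low macrophages of mouse 26 (104 of 11547 genes called) and 1 without GFPpos glioma monocytes of mouse 26 (164 of 11911).

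The step from glioma monocytes to CCR2high macrophages was not called for any of the 9 genes by edgeR in GFPneg cells (*Il1rn* 1.68 ± 0.49, adjusted p = 0.25; 2 genes at an unadjusted p under 0.05, 1 by DESeq2; 0.182% of all genes called, 5.38% unadjusted) or GFPpos cells (1 at an unadjusted p under 0.05, 0 by DESeq2; 0.0173% called, 5.82% unadjusted). Between CCR2high and CCR2low macrophages 0 of the 9 passed with and without GFP, also at an unadjusted p under 0.05 and by DESeq2, as did 0% of all genes, while 1.48% and 2.39% of all genes had an unadjusted p under 0.05. *Il1a* showed no such order: its mean was 425 ± 279 CPM (SD, n = 3) in GFPneg glioma monocytes, 524 ± 298 CPM (n = 4) in CCR2high and 530.1 ± 289.9 CPM (n = 4) in CCR2low macrophages. The log2 difference between the first and the last was -0.32 (95% confidence interval -1.43 to 0.79). The reads of *Il1b* therefore outnumbered those of *Il1a* most in GFPneg glioma monocytes (median 11.3, range 8.05 to 12.65), less in GFPneg CCR2high macrophages (4.16, 3.13 to 5.98) and least in GFPneg CCR2low macrophages (2.47, 1.21 to 2.8), and these 3 ranges did not overlap. In GFPpos cells the medians were 4.905, 3.32 and 2.4, and the ranges of CCR2high (2 to 3.79) and CCR2low macrophages (1.68 to 2.635) overlapped.

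**Figure D3:**
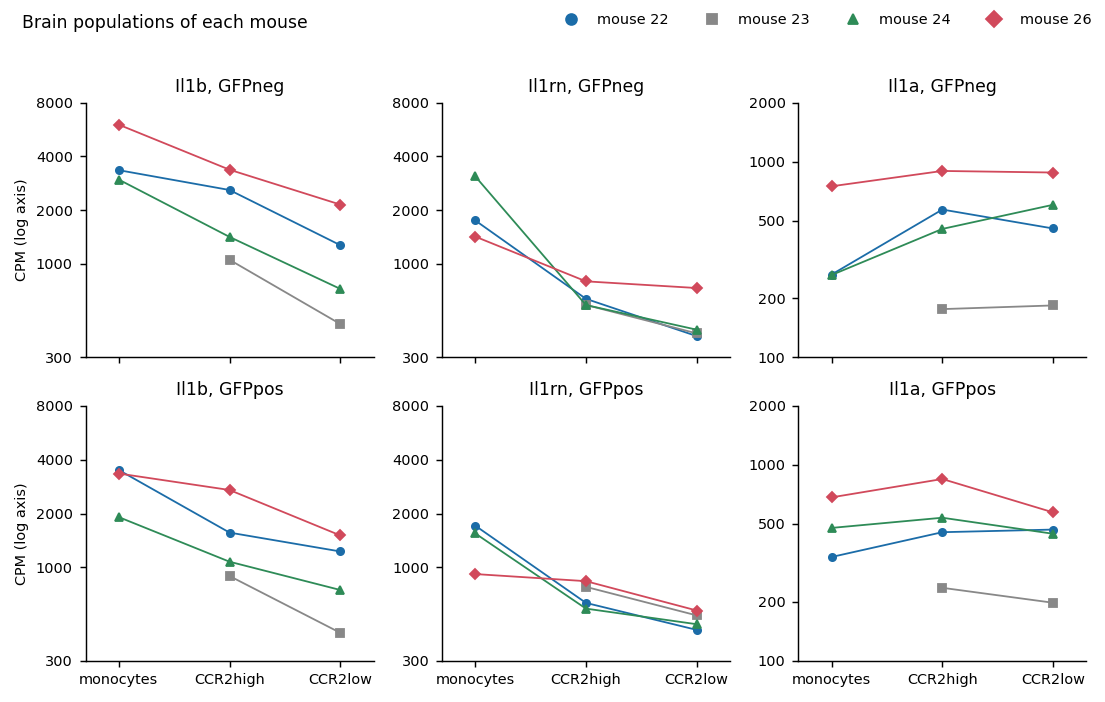
Level of *Il1b*, *Il1rn* and *Il1a* in CPM on a log axis in glioma monocytes, CCR2high and CCR2low macrophages, with lines joining the populations of 1 mouse, GFPneg above and GFPpos below. The lines of *Il1b* and *Il1rn* go down from left to right in all 6 complete sets, and those of *Il1a* in none.

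The summed level of the dissociation-induced genes moved with this order, with medians of 15211 CPM in GFPneg glioma monocytes, 9576 CPM in CCR2high and 8504 CPM in CCR2low macrophages, and its part in the result was not tested. The summed microglia markers went the other way (medians 1317, 1839.6 and 3184 CPM), and their part was not tested either. In the same populations the medians were 705, 112 and 571 CPM for neutrophil markers, 632, 592 and 505 CPM for dendritic cell markers and 657, 884 and 1088 CPM for T and NK cell markers, and the part of these cells was not tested.

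Uptake of tumor GFP went with 0 called differences among the 9 genes in glioma monocytes, CCR2high or CCR2low macrophages (edgeR; 0 also at an unadjusted p under 0.05, 0 by DESeq2, and 0% of all genes, with 6.39%, 0.597% and 1.59% of all genes at an unadjusted p under 0.05). Of 27 tests of whether the GFP difference itself differs between 2 populations, 0 were called (0% of all genes; 0 also at an unadjusted p under 0.05, where 2.35%, 3.41% and 0.726% of all genes were, and 0 by DESeq2). *Il18bp* was higher in GFPpos than in GFPneg cells in all 11 pairs of the same mouse and population, as were 0.432% of all genes tested, and 0.354% were lower in all 11. In glioma monocytes it was at 787 against 506 CPM in mouse 22, 381 against 359.8 CPM in mouse 24 and 242 against 198 CPM in mouse 26, GFPpos first. In CCR2high macrophages it was at 611 against 442, 620.5 against 434, 418 against 327 and 359 against 334 CPM in mice 22, 23, 24 and 26. In CCR2low macrophages it was at 553 against 351, 511 against 301, 357 against 197 and 299 against 254 CPM. The difference within pairs was 0.08 to 0.85 on the log2 scale, with a median of 0.47. The fitted values of 0.41, 0.39 and 0.64 had 95% confidence intervals of -1.03 to 1.84, -0.86 to 1.63 and -0.60 to 1.89. These 11 pairs come from 4 mice and are not 11 independent samples. *Il1b* and *Il1r2* were lower in GFPpos cells in 9 of 11 pairs each. The share of all genes with such a count was not taken, so this is a description only.

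**Figure D4:**
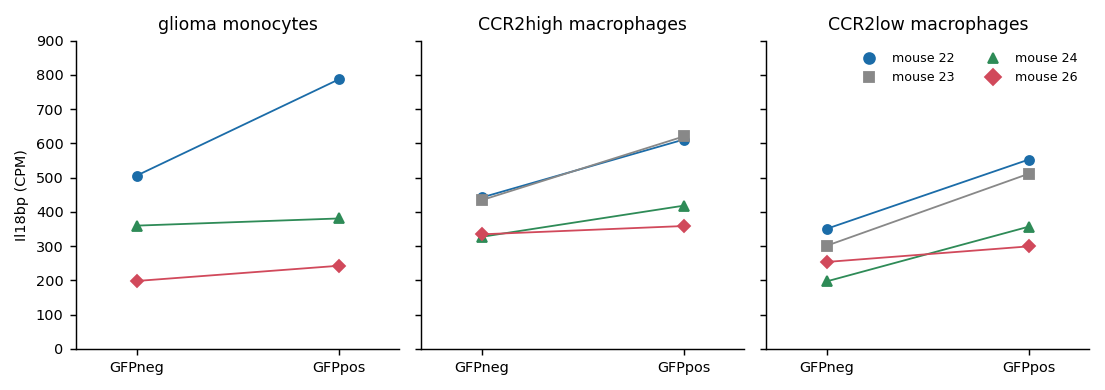
Level of *Il18bp* in CPM in GFPneg and GFPpos cells of the same mouse, joined by a line, in glioma monocytes, CCR2high and CCR2low macrophages. All 11 lines rise from GFPneg to GFPpos, by 0.08 to 0.85 on the log2 scale.

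For several of the 9 genes mouse 26 lay at the edge of most brain populations, but the spread was not divided up by mouse. Mouse 23 was the lowest of each macrophage population for *Il1a* and *Il1b*. Mouse 26 was the highest replicate in all 6 brain populations for *Il1a*, *Il1r2* and *Nlrp3*, as it was for 4.53% of all genes tested, and in 5 of 6 for *Il1b* and *Il1rap*. It was the lowest in 5 populations for *Il18* and in 4 for *Il18bp* and *Casp1*, and in all 6 for 0 of the 9 genes against 2.62% of all genes. Against the mean of the other mice its median log2 difference was 1.8 for *Il1r2*, 1.77 for *Nlrp3*, 1.19 for *Il1a*, 1.16 for *Il1rap* and 1.07 for *Il1b*, and -0.61 for *Il18bp* and -0.56 for *Il18*. *Nlrp3*, for instance, was at 74.1 CPM in GFPneg CCR2high macrophages of mouse 26, where the other mice were at 12.6 to 14.7 CPM. The count of *Il1b* per count of *Il1rn* had a median of 3.45 over the brain populations of mouse 26 and of 2.61, 1.14 and 1.62 in mice 22, 23 and 24. Mouse 26 gave no blood replicate, so its blood level is not known. Its summed dissociation-induced genes (median 9485 CPM) lay within the medians of the other mice (6646 to 12736 CPM), as did its neutrophil markers (239 CPM against 57.6 to 1397 CPM), dendritic cell, microglia, and basophil and mast cell markers. It lay outside for T and NK cell markers (439.9 CPM against 741 to 1187 CPM), B and plasma cell markers (369.9 CPM against 482 to 2001 CPM), monocyte and macrophage markers (8080.0 CPM against 5551 to 7462 CPM) and genes of interleukin-1 receptor signaling (3192 CPM against 1824 to 2300.2 CPM). Also outside were the further interleukin-1 family genes (115 CPM against 64.4 to 104 CPM) and the further inflammasome and pyroptosis genes (1656 CPM against 1707 to 1781 CPM). Mouse 23 gave no glioma monocytes, so its medians cover macrophages only. The part of these lists in the result was not tested. The 5 genes called against Ly6Chigh monocytes were called in each of the 4 comparisons without mouse 26 as well.

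**Figure D5:**
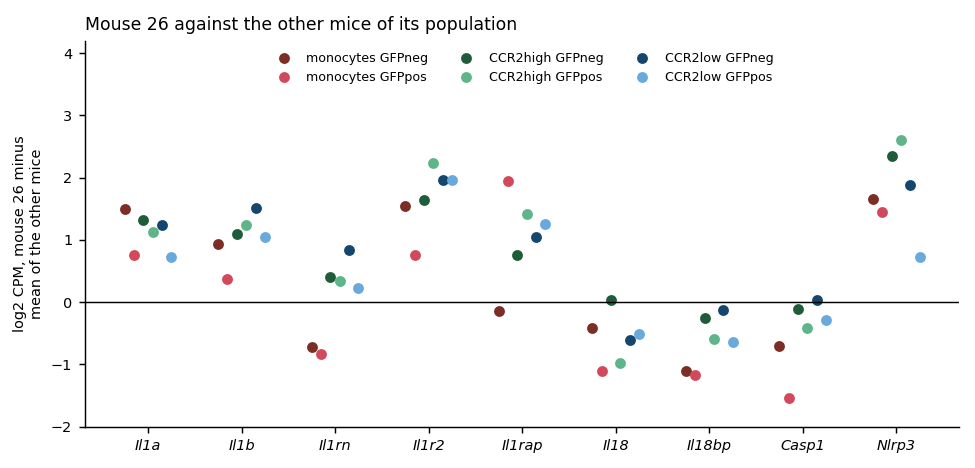
Difference between mouse 26 and the mean of the other mice of the same brain population, in log2 CPM, for the 9 genes, with 1 point for each of the 6 brain populations. All 6 points lie above 0 for *Il1a*, *Il1b*, *Il1r2* and *Nlrp3* and below 0 for *Il18bp*.

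The wider interleukin-1 family was read from a list of 12 further ligands and receptors, of which 7 had enough reads. *Il1rl2*, the receptor for interleukin-36, was called higher than in Ly6Chigh monocytes in all 4 comparisons, and its log2 differences in GFPneg cells were 3.14 ± 0.88 (SE; adjusted p = 0.016) in glioma monocytes, 4.22 ± 0.88 (0.001) in CCR2high and 4.58 ± 0.89 (0.00045) in CCR2low macrophages. Its mean went from 1.81 CPM in Ly6Chigh monocytes to 55.6 CPM in GFPneg CCR2low macrophages. *Il18r1*, a chain of the interleukin-18 receptor, was called in GFPneg glioma monocytes (3.96 ± 1.23, adjusted p = 0.031), GFPneg CCR2low macrophages (3.72 ± 1.19, 0.027) and GFPpos glioma monocytes, at population means of at most 8.02 CPM. *Il33*, an alarmin cytokine, was at 0 in all blood replicates and had enough reads only through the brain. It passed in GFPpos glioma monocytes, at 37.9 ± 64.1 CPM (SD, n = 3) with 1 replicate at 0, and had adjusted p from 0.055 to 0.11 in the 3 GFPneg populations. In the 4 comparisons 2, 1, 2 and 3 of the 7 tested genes, *Il33* included in the last, were higher and 0 lower, where 11.1%, 12.7%, 14.1% and 17% of all genes were higher and 2.68%, 5.14%, 6.09% and 6.07% lower. The signaling receptor *Il1r1*, named here after its values were seen, had too few reads to be tested, was at 0 in all blood replicates and reached a population mean of at most 1.98 CPM, and the interleukin-36 genes *Il1f5*, *Il1f6* and *Il1f8* and the ligand gene *Il1f10* were at 0 in all replicates.

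Of 20 listed genes of the signaling path below the interleukin-1 receptor, all tested, 3 were called higher in each of the 4 comparisons with Ly6Chigh monocytes and 2, 3, 4 and 2 lower, where 11.1%, 12.7%, 14.1% and 17% of all genes were higher and 2.68%, 5.14%, 6.09% and 6.07% lower. The share called higher was thus near that of all genes. The same 3 were higher in all 4: *Nfkbiz*, a co-regulator induced by NF-kB, *Nfkbia*, which encodes its inhibitor IkBα, and *Tnfaip3*, which encodes the feedback inhibitor A20. *Nfkbiz* went from 16.1 ± 8.03 CPM (SD, n = 3) in Ly6Chigh monocytes to 556 ± 261 CPM (n = 3) in GFPneg glioma monocytes (log2 difference 5.07 ± 0.74 SE, adjusted p = 2.1e-05). *Tnfaip3* went from 32.1 ± 17.8 CPM to 683 ± 331 CPM (4.39 ± 0.76, 0.00018). In GFPneg CCR2low macrophages the values were 3.70 ± 0.68 (adjusted p = 0.00023) for *Nfkbiz* and 3.14 ± 0.70 (0.0019) for *Tnfaip3*. The kinases *Irak4* and *Ikbkb* were called lower in all 4, with log2 differences in GFPneg CCR2low macrophages of -1.69 ± 0.29 (adjusted p = 0.00011) and -2.11 ± 0.24 (5e-07). *Irak3*, an inhibitory member of the IRAK family, was lower in both GFPneg macrophage populations (-2.50 ± 0.75, adjusted p = 0.021, and -2.61 ± 0.76, 0.015), and the adaptor *Myd88* in CCR2low macrophages (-0.99 ± 0.27, 0.011). The medians of the list were -0.26, -0.41, -0.53 and -0.39, against 0.12, 0.15, 0.17 and 0.22 for all genes.

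Of 22 further inflammasome and pyroptosis genes, all tested, few were called. *Txnip*, which encodes a thioredoxin inhibitor that can bind NLRP3, was lower in all 4 comparisons with Ly6Chigh monocytes, from 833 ± 183 CPM (SD, n = 3) to 247 ± 28.2 CPM (n = 3) in GFPneg glioma monocytes (log2 difference -1.75 ± 0.28 SE, adjusted p = 6.1e-05). Its values were -2.28 ± 0.26 (3.7e-07) in CCR2high and -1.51 ± 0.25 (7.5e-05) in CCR2low macrophages. *Casp4*, the sensor protease of the noncanonical inflammasome, was higher in GFPneg glioma monocytes (1.40 ± 0.43, adjusted p = 0.03), at 75.8 ± 33.6 CPM against 28.7 ± 7.52 CPM. *Mefv*, which encodes the sensor pyrin (-3.30 ± 1.15, adjusted p = 0.043), and *Nlrx1* (-1.35 ± 0.43, 0.027) were lower in GFPneg CCR2low macrophages. In GFPpos glioma monocytes the adaptor gene *Pycard* and the deubiquitinase gene *Brcc3* were called higher and *Nek7*, which encodes a partner of NLRP3, lower. The counts were thus 1 higher and 1 lower, 0 and 1, 0 and 3, and 2 and 2, where 11.1%, 12.7%, 14.1% and 17% of all genes were higher and 2.68%, 5.14%, 6.09% and 6.07% lower, and the medians of the list were -0.21, -0.51, -0.50 and -0.71.

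For each of the 9 genes, the 3 tested genes with the most similar profile were taken by Pearson correlation of log2 CPM over the 22 brain replicates, which share mice and vary in depth, so the values are a description. *Il1b* varied most like *Ccrl2*, a chemokine-binding receptor (r = 0.97), *Gm6377* (0.94) and *Cd14*, the co-receptor for endotoxin (0.92). *Il1r2* varied like *Ifitm1* (0.89), *Pde4b* (0.87) and the neutrophil-attracting chemokine *Cxcl2* (0.86), *Nlrp3* like *Bcl2l11* (0.91), *Rasgef1b* (0.88) and the receptor *Tlr2* (0.87), and *Il1rap* like *Vasn* (0.85), *Csn3* (0.79) and *Sun1* (0.79). *Il1rn* varied like the interferon-inducible *Ifi204* (0.93), *H2-T24* (0.92) and *Cdkn1a* (0.91), and *Il18* like *Phf11d* (0.93), *BC147527* (0.91) and *Xaf1* (0.90). *Il18bp* varied like *Akr1a1* (0.87), *Anxa5* (0.86) and *Sdhb* (0.84), and *Casp1* like *Fcer1g* (0.89), *Lgals9* (0.88) and *BC028528* (0.88). *Il1a* had the weakest likeness, to *Tgoln1* (0.77), *Dync1h1* (0.76) and *Zfp36l1* (0.74).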

How the data were processed

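RNA of 8 sorted populations was sequenced. Per the labels and the study's methods, the authors made libraries from 500 pg of RNA with spike-in RNAs, aligned them with STAR, removed duplicates with Picard 1.8.4 and counted reads with HTSeq on GRCm38. The deposited values are raw counts per gene, with 30 columns, and 0 columns were left unused. Rows that name no gene took 6.28 to 17.4% (no feature) and 1.58 to 1.9% (ambiguous) of reads and were left out. A library was kept where at least 6000 genes had 5 or more reads, which 1 library failed, and libraries of 1 sample were summed to 28 replicates.

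Counts were fitted with edgeR 4.0.16 (R 4.3.3; filterByExpr, TMM, robust quasi-likelihood test) with population as the only term, and p-values were adjusted by Benjamini-Hochberg over 11566 genes. Log2 levels used a prior count of 2. Standard errors were derived from the F statistic, and confidence intervals are at 95%. A count of 0 was taken to allow 3 counts, and such limits cover counting error only. The title's number was taken as the mouse, which the labels do not state, so that populations of 1 number would share an animal: same-mouse brain pairs deviated together (median correlation 0.22, 51 pairs) and different-mouse pairs did not (-0.07, 150 pairs). Alternatives were DESeq2 1.42.0 or its size factors, spike-in scaling, stricter and looser filters, the mouse as a block, other samples in the fit and each replicate left out. Leaving out mouse 26 was chosen after seeing the data.

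The 9 genes and the gene lists were chosen with earlier results of these data known. All 9 are named, other listed genes where called against Ly6Chigh monocytes, and for each of the 9 the 3 genes of highest correlation.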

Additional observations from a re-analysis of the deposited data

Results flagged for a closer look

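Of 36 groups of 4 replicates examined, 6 had 1 replicate far from the others, and in all 6 it was mouse 26 and the highest. Chance alone would set apart about 1 in 20 such groups if values were normally distributed, which CPM on a linear scale, as used here, need not be. The 6 come from 1 mouse, and groups of 3 were not examined. Il1rn was at 733.6 CPM in its GFPneg CCR2low macrophages, where the other mice were at 394.7 to 428.7 CPM. Il1r2 was at 441 CPM in its GFPpos CCR2high macrophages (others 63.05 to 113.9 CPM), at 347 CPM in GFPneg CCR2low macrophages (70.76 to 116.5 CPM) and at 162.7 CPM in GFPpos CCR2low macrophages (33.92 to 50.6 CPM). Nlrp3 was at 74.1 CPM in its GFPneg CCR2high macrophages (12.61 to 14.69 CPM) and at 80.57 CPM in GFPpos CCR2high macrophages (10.24 to 14.86 CPM).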

How the results depend on the processing

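The number of the 9 genes called was compared over 21 comparisons. It stayed within 1.5 times in all 21 with DESeq2 size factors and without mouse 26. Scaled on the spike-ins it became 3 in GFPneg CCR2low macrophages and 2 in GFPpos glioma monocytes against Ly6Chigh monocytes, 0 between the blood subsets and 0 between GFPneg glioma monocytes and CCR2low macrophages. Of all 11566 genes, 591, 572, 36 and 1 were then called, in the same order. With at least 10 counts required in every replicate only 2 of the 9 genes could be tested, and 1 was called in the 4 comparisons with Ly6Chigh monocytes and in GFPneg glioma monocytes against Ly6Clow monocytes, 2 in both macrophage comparisons with Ly6Clow monocytes, and 0 in the other 2 comparisons named above. In these comparisons 140 to 1300 of all 4379 genes tested were called. Between GFPneg glioma monocytes and CCR2low macrophages the count was 0 with at least 1 count in any replicate (102 of 22327 genes called) and 0 where the first library of each sample was used with no quality rule (47 of 11439). It was 2 by DESeq2 (274 of 11566) and 2 with only the compared populations fitted (293 of 9942). With only those populations it was 4 in GFPneg glioma monocytes against Ly6Clow monocytes (226 of 9210 genes called) and 0 of 7 tested between the blood subsets (0 of 8928). It was 1 between GFPneg glioma monocytes and CCR2high macrophages (101 of 9769) and 1 over the brain populations (290 of 11283). In these last 2, DESeq2 gave 1 and 2 (107 and 326 of 11566). With the mouse as a replicate block the count was 2 between the blood subsets, 2 between GFPneg glioma monocytes and CCR2low macrophages, 1 in GFPpos cells and 1 over the brain populations. Of all genes, 7.97%, 2.46%, 0.527% and 1.99% were then called, in the same order. In GFPneg CCR2high macrophages against Ly6Clow monocytes the block ended the Casp1 call and added Il18, and it changed no other call of the 9 genes. Over fits that left out 1 replicate, the counts ranged from 0 to 2 between GFPneg glioma monocytes and CCR2low macrophages, 0 to 2 between the blood subsets, 0 to 1 in GFPpos cells and 0 to 1 over the brain populations. Of 349 log2 values recomputed this way, 323 kept direction and call. The cause of these changes was not tested.

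Directions turned only for values that had not passed, apart from Casp1 against Ly6Clow monocytes, which was 1.32 and 1.15 under spike-in scaling in CCR2high and CCR2low macrophages and 0.014 in CCR2high macrophages with first libraries alone, among them the failed library of Ly6Clow mouse 23. Against Ly6Chigh monocytes, in GFPneg cells, Il1rap in glioma monocytes was -0.18 under spike-in scaling and -0.10 with the block, and -0.11 to 0.96 with 1 replicate left out. Il1rap in CCR2low macrophages was -0.94 to 0.14 with 1 replicate left out. Casp1 in glioma monocytes was 0.10 with the block, 0.17 without mouse 26 and -0.33 to 0.13 with 1 replicate left out. Nlrp3 in CCR2low macrophages was -0.26 with the block, -0.29 without mouse 26 and -0.34 to 1.02 with 1 replicate left out, and in CCR2high macrophages -0.23 without mouse 26 and -0.28 to 1.46 with 1 replicate left out. Il18 in CCR2low macrophages was -0.039 to 0.23 with 1 replicate left out. Il1a had 0 counts in blood, so depth gives only a bound there.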
